A study of Caenorhabditis elegans with 2 samples.

Results

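RNA polymerase II does not stop at the last base of a message. In animal cells the enzyme transcribes past the site where the nascent RNA is cleaved and polyadenylated, slows there, and is released while the RNA still attached to it is degraded. The stretch just past a gene's annotated 3′ end is therefore a place where the polymerase can be found by chromatin immunoprecipitation followed by sequencing (ChIP-seq). In C. elegans many genes also lie head to tail in operons, with the next gene close behind, and short noncoding genes often sit in the same gaps.

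The regions described here are the summits of AMA-1 ChIP-seq peaks that lay 1 to 500 bp past a protein-coding gene. AMA-1 carries the active site of RNA polymerase II and is its largest subunit. They were taken from the 3000 peaks of highest signal in the pooled list, and a summit was kept where it was outside every protein-coding gene and more than 500 bp from every protein-coding 5′ end. This gave 260 of the 3000 summits (8.67%, Wilson 95% interval 7.71 to 9.73%, which covers counting error over peaks only). The authors gave every peak a signal value, whose scale the sources used here do not state. It served to take the upper part of the list, and below also to rank and describe the peaks. The last peak taken had a signal of 37.6234 and the next one below it 37.6081. The weakest member lay past pat-3 (37.7), and the strongest summit of the same kind below the list lay past mfb-1 (37.3).

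The series has 1 group. Whole larvae of the wild-type N2 strain, of pooled sexes and in the second larval stage (L2), were immunoprecipitated with an antibody to AMA-1 in 2 biological replicates, with no treatment, transgene or mutant allele named. Each library mixes all tissues of the animal, so many cells with little polymerase at a gene and few cells with much cannot be told apart. There is no second condition, so the values below are counts, shares and medians over regions, set beside the same quantities over all peaks taken or over all genes, with no test between groups. Read depth is unknown from the lists, and positions are on ce11 (WBcel235).

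The strongest summits that lay in sequence free of any annotated gene, small RNA genes included, are printed to show what stands at them. They are the 8 of highest signal among 166 such windows, counted and ranked with some members left out by chromosome, as given under the processing below. Each is the 101 bases centred on the summit, on the strand of the gene that ends before it, 5′ to 3′, from the RefSeq sequence of WBcel235. Capitals mark the 11 bases centred on the summit.
F44E5.5: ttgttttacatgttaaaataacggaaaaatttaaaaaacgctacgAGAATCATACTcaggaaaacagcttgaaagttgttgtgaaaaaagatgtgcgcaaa
R107.5: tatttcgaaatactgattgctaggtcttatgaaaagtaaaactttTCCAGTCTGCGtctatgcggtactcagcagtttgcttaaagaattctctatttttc
F44E5.4: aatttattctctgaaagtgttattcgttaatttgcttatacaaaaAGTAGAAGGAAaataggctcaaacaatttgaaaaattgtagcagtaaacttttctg
F25E5.8: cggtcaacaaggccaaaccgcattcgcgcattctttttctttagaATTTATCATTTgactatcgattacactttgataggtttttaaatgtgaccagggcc
lgg-1: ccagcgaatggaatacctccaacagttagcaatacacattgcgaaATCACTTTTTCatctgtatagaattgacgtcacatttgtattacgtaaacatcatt
hsp-16.48: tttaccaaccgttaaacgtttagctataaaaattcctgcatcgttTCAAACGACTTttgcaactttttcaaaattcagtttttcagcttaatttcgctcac
mak-1: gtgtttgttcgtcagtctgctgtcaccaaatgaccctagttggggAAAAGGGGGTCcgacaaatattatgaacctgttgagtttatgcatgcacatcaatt
gpd-3: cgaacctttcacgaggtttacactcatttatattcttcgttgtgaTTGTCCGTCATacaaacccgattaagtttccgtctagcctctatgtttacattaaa

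These windows are at chrII:11761866-11761966 (plus strand) for F44E5.5, chrIII:9051399-9051499 (minus) for R107.5 and chrII:11756938-11757038 (minus) for F44E5.4. The window past F25E5.8 is chrV:7437018-7437118 (plus), and that past lgg-1 is chrII:6346827-6346927 (minus). The others are chrV:9089023-9089123 (minus) for hsp-16.48, chrII:8747322-8747422 (plus) for mak-1 and chrX:3111923-3112023 (minus) for gpd-3. G and C made up 26.7% of the bases in the window past F44E5.4, the lowest of the 8, and 43.6% in that past mak-1, the highest. None of the 8 held a run of TTTTTT or the word AATAAA on the printed strand.

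Summits gathered within 300 bp past the 3′ end and thinned out beyond 400 bp. The median distance was 160.5 bp (95% interval of the median 141 to 186 bp, n = 260), with quartiles of 100.75 and 249.5 bp. Of the 260 summits, 65 lay 1 to 100 bp past the end, 97 lay at 101 to 200 bp, 56 at 201 to 300 bp, 30 at 301 to 400 bp and 12 at 401 to 500 bp. Less sequence is available far from genes, so the counts were also divided by the bases in each bin that met the same conditions. The density was 6.28 summits per 100 kb in the first bin, 10.4 in the next, then 6.75, 4.01 and 1.77. From 501 to 1000 bp it was between 1.04 and 2.76 per 100 kb. Over the whole window it was 6.16 per 100 kb, against 6.90 within 500 bp of 5′ ends, 1.85 in gene bodies and 1.91 in the remaining intergenic sequence. The window covered 4.21% of the 6 nuclear chromosomes.

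**Figure D1:**
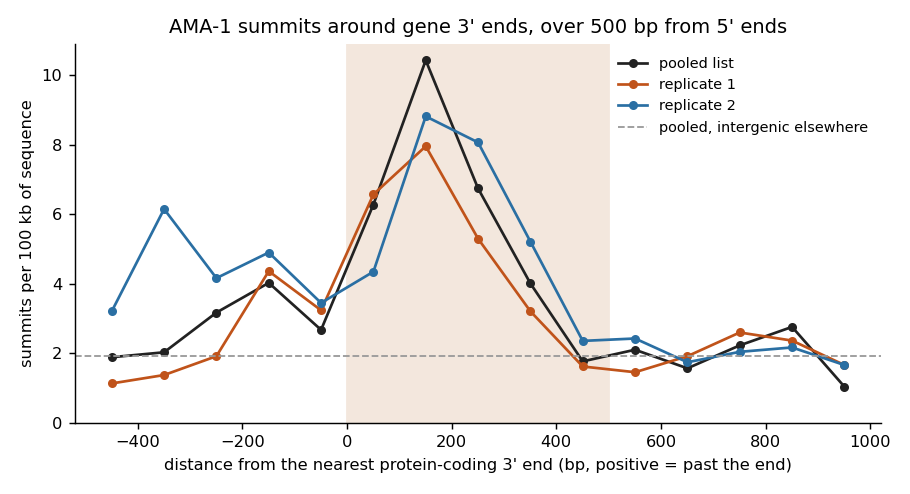
AMA-1 summits per 100 kb of sequence (vertical axis) against distance from the nearest protein-coding 3′ end in 100 bp bins (horizontal axis, negative inside the gene), counting only sequence over 500 bp from every 5′ end, for the pooled list and each replicate's 3000 strongest peaks. The shaded part holds the 260 summits, and the pooled line reaches 10.4 at 101 to 200 bp, against 1.91 (dashed line) in intergenic sequence elsewhere.

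The position of the highest density was the same bin in both replicates, but replicate 2 was spread further past the ends. In replicate 1 the density was 6.57 per 100 kb at 1 to 100 bp, 7.96 at 101 to 200 bp and 5.30 at 201 to 300 bp. In replicate 2 it was 4.35, 8.82 and 8.07 in the same bins. Inside genes, in the bin from -399 to -300 bp, replicate 2 had 6.15 summits per 100 kb and replicate 1 had 1.37. Taking each replicate's own 3000 strongest peaks in place of the pooled list gave 221 summits of this kind for replicate 1, with a median of 148 bp, and 249 for replicate 2, with a median of 198 bp. Among the 243 members with a peak in both whole replicate lists, the replicate 2 summit lay further past the end at 154, the replicate 1 summit at 86, and both at the same base at 3, with a median difference of 23 bp. Where both replicate summits were within 200 bp of the pooled one (202 members), replicate 2 was further past at 126, with a median difference of 20 bp. Each side is 1 library, so this describes these libraries only.

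The strongest peaks of the list were more often of this kind than the weaker ones. Summits past 3′ ends made up 20% of the 50 peaks of highest signal (10 of 50), 13.5% of ranks 51 to 250, 12.4% of ranks 251 to 500, 9.20% of ranks 501 to 1000, 8% of ranks 1001 to 2000 and 6.60% of ranks 2001 to 3000. Below the list the share was 5.10% of ranks 3001 to 6000 and 4.81% of the remaining peaks. The median signal was 57.8 for the members, against 52.6 for all 3000, 53.8 for summits at 5′ ends and 50.8 for those in gene bodies. A signal over 200 was seen at 15 of the 260 (5.77%), against 75 of all 3000 (2.50%). Of the 25 strongest members, 13 had a noncoding gene within 100 bp, against 18.1% of all 260. The part of such genes in the shares by rank was not tested. The authors' optimal list, which passed their irreproducible discovery rate step and is the upper part of the same ranking, held 188 of the 260 (72.3%), against 62% of all 3000 peaks. Most peaks had the width of 370 bp that was the commonest in the list (81.9% of members and 90.4% of all 3000), while 27 members were narrower and 20 wider.

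**Figure D2:**
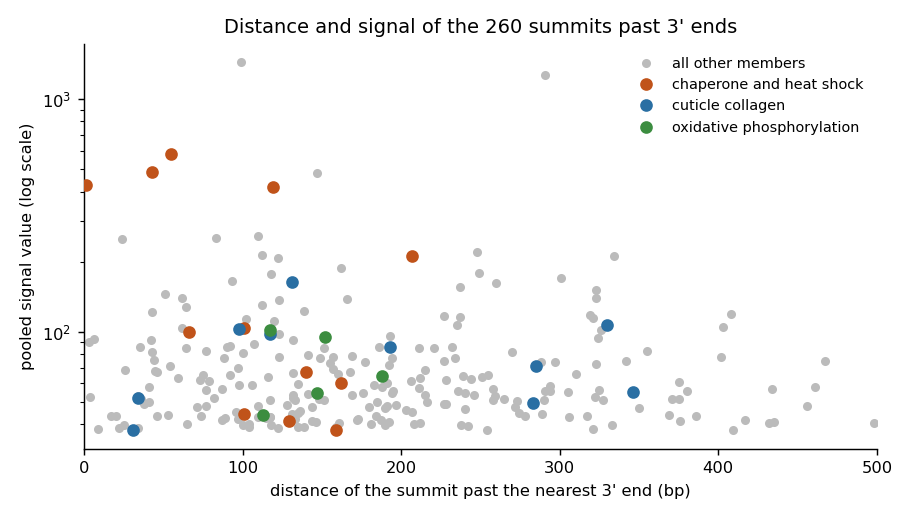
Pooled signal value (vertical axis, log scale) of the 260 summits against their distance past the nearest 3′ end in bp (horizontal axis), 1 point per summit, with the 12 summits past chaperone and heat shock genes, the 10 past cuticle collagen genes and the 5 past oxidative phosphorylation genes coloured. Of the 5 strongest chaperone and heat shock summits, 4 lie within 119 bp and 1 at 207 bp.

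The bin nearest to the 3′ ends held the strongest summit and the highest median. The median signal was 65.1 at 1 to 100 bp, then 54.5, 57.0, 55.8 and 52.3 in the following bins of 100 bp. The highest values were 1434.88, 481.55, 1269.83, 211.4 and 119.4 in the same order.

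The summit of highest signal in the whole list, 1434.88, was of this kind. It lay 99 bp past R12E2.11 on chromosome I, position 4172339, and within 100 bp of the SL2 RNA gene sls-2.4. Its product, SL2 RNA, donates the leader that trans-splicing adds to messages from downstream genes of operons. This peak also had the highest signal in each replicate, at 1033.13 in replicate 1 and 476.4 in replicate 2. The next member, at 1269.83, lay inside sls-2.1, 291 bp past ZK1248.17 and 343 bp past nep-25 on chromosome II, and ranked 3 in replicate 1 (1000.1) and 6 in replicate 2 (268.4). Of the 36-base words around it, 72.3% were unique. Both stood far above the other members, of which the highest reached 580.7.

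Heat shock genes came directly after them. F44E5.5 and F44E5.4 encode members of the HSP70 chaperone family and lie head to head on chromosome II, so that their 3′ ends point away from each other. The summit past F44E5.5 (position 11761916, 55 bp past the end) had a signal of 580.7, and that past F44E5.4 (11756988, 119 bp past) had 417.6. In replicate 1 they had 562.7 and 407.6, at ranks 7 and 13. In replicate 2 they had 23.3 and 32.5, at ranks 1259 and 506. Both summits thus ranked lower in replicate 2 than in replicate 1. The one past F44E5.4 lay within 100 bp of an annotated ncRNA gene.

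The copies were close to identical at the end of the genes and differed past it. Their last 300 bases aligned at 96.1% identity, and the 300 bases past their 3′ ends at 53.4%. Of the 36-base words in the last 200 bases of the gene, 27.3% were unique in the genome for F44E5.5 and 24.2% for F44E5.4. Within 100 bp of the summits 94.6% and 100% of these words were unique. Whether reads could be placed inside the genes was not tested, since the lists hold no reads.

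hsp-1, which encodes the constitutive HSC70 chaperone, ends opposite nra-1 with 124 bp between them on chromosome IV. The summit there (17281412, signal 484.4) lay 43 bp past nra-1 and 82 bp past hsp-1. Its peak had 437.3 in replicate 1 (rank 12) and 49.7 in replicate 2 (rank 173), where the summit fell 45 bp inside nra-1. Because the gap is shorter than the peak (475 bp), the signal cannot be given to either gene.

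Genes of the small heat shock protein family gave several further members. The summit 1 bp past hsp-12.3 (chromosome IV, 9444790, signal 426.2) had 264.4 in replicate 1 and 164.7 in replicate 2, at ranks 21 and 11. It lay within 100 bp of the snRNA gene F38E11.11, and 74.7% of the 36-base words around it were unique. Between the 2 convergent genes named hsp-16.48 on chromosome V the summit (9089073, signal 211.7) lay 207 bp past one copy and 456 bp past the other. That peak was 662 bp wide, as long as the gap between the genes, and no 36-base word in the last 200 bases of either copy was unique, against all of them at the summit. hsp-16.2 and hsp-16.41 had members 101 bp (104.2) and 66 bp (99.4) past their ends, and in each replicate the overlapping peak had its summit upstream of the 3′ end.

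**Figure D3:**
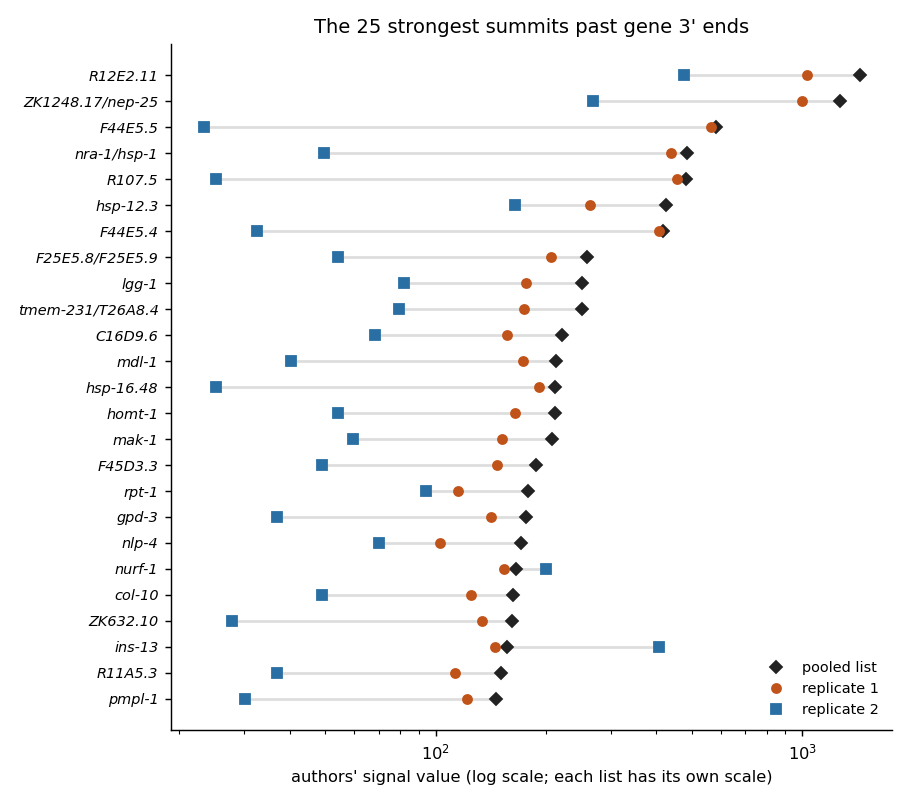
Authors' signal value (horizontal axis, log scale) of the 25 strongest summits past 3′ ends in the pooled list (diamonds), replicate 1 (circles) and replicate 2 (squares), named by the nearest 3′ end gene and, after a stroke, by a differently named 2nd gene ending within 500 bp. The signal is higher in replicate 1 than in replicate 2 at 23 of the 25, on scales not known to be equal.

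Other strong members followed genes of varied roles. lgg-1, the ATG8 homolog of autophagy, had a summit 83 bp past its end (251.5, with 176.7 in replicate 1 and 82.0 in replicate 2, at ranks 55 and 52). mdl-1, a MAD-like transcription factor, had one at 112 bp (213.0), and mak-1, a MAPK-activated protein kinase, at 122 bp (207.9). gpd-3, a glyceraldehyde-3-phosphate dehydrogenase of glycolysis, had one at 118 bp (176.6), rpt-1, a proteasome ATPase, at 249 bp (178.6), and the collagen gene col-10 at 131 bp (162.9). nurf-1, a subunit of the NURF chromatin remodeller, had its summit at 93 bp (165.8) in a peak 2805 bp wide, whose summit in each replicate lay more than 2000 bp upstream inside the gene.

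The rest of the 25 strongest were R107.5 (481.5), F25E5.8 (258.5), tmem-231 (250.9), C16D9.6 (221.0), homt-1 (211.4), F45D3.3 (187.4), nlp-4 (170.9), ZK632.10 (161.6), ins-13 (156.3), R11A5.3 (150.9) and pmpl-1 (145.8). The R107.5 summit, like those of the HSP70 pair, ranked higher in replicate 1 (454.7, rank 10) than in replicate 2 (25.1, rank 1028). The ins-13 summit overlapped a stronger peak in replicate 2 (408.0, rank 3) whose summit lay 818 bp past the end, beyond the window. Of the 25, 18 ranked higher in replicate 1 than in replicate 2, against 149 of all 260 members (57.3%). Of the same 25, 11 followed a gene that also had a summit within 500 bp of its own 5′ end. Among all 255 nearest genes 114 (44.7%) had one.

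A noncoding gene lay at or near many of these summits. Of the 260, 19 (7.31%) lay inside one, against 6.23% of all 3000 summits, and 47 (18.1%) within 100 bp of one, against 12.7%, and 13 of the 25 strongest did so. By class, 24 were near a gene of the general ncRNA class, 9 near a snoRNA, 8 near a snRNA, 7 near a tRNA, 3 near a pseudogene, and 2 each near a lincRNA, a microRNA and a piRNA gene. Of the 8 snRNA neighbours 5 were SL2 genes, sls-2.4, sls-2.1, sls-2.3 past ins-13, sls-2.17 past msp-65 and sls-2.13 past msp-57. Small nucleolar RNA genes, whose products guide the modification of other RNAs, lay at the summits past homt-1 (Y74C9A.6) and nlp-4 (F59C6.15), and near those past tmem-231 (T26A8.6) and C16D9.6 (C16D9.10). Pseudogenes lay at the summits past ddo-2 (102.1) and algn-12 (85.3), and ncRNA genes at those past mdl-1 (R03E9.10) and F45D3.3 (F45D3.10). The microRNA genes were cel-mir-45 past top-2 and cel-mir-72 past pqn-42. snRNA and tRNA genes were near 3.08% and 2.69% of members, against 1.07% and 0.567% of all 3000. The general ncRNA class, the largest, was near 9.23%, against 8.67%, lincRNA genes near 0.769%, against 0.733%, and microRNA genes near 0.769%, against 0.833%. snoRNA genes were near 3.46% of members, against 1.73% of all 3000, pseudogenes near 1.15%, against 0.333%, and piRNA genes near 0.769%, against 0.600%. At these summits, transcription of the small RNA gene and of the message cannot be told apart.

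Gene lists were set beside all genes by the share of their 3′ ends that a member followed. The chaperone and heat shock list was written with the strongest members known, and F44E5.4 and F44E5.5 were put on it by name, so its count is not independent of them. A member lay past 13 of the 37 genes on that list whose 3′ end had any sequence meeting the conditions (35.1%), against 285 of 11906 such protein-coding genes in all (2.39%). They shared 12 summits, from 37.8 to 580.7, with a median signal of 101.8, against 57.8 for all members. The 13 include hsp-1, whose summit lay nearer to nra-1, and both hsp-16.48 copies past a single summit. For hsp-16.2 and hsp-16.41 the replicate summits lay upstream of the 3′ end. The 285 genes were counted by the same rule. Besides those named, the list held hsp-6 (66.9), the mitochondrial HSP70, at 140 bp, cct-4 (60.4), a subunit of the CCT chaperonin, at 162 bp, and hsp-60 (37.8), the mitochondrial chaperonin, at 159 bp. hsp-3 (44.3) at 101 bp and hsp-4 (41.4) at 129 bp encode the HSP70 proteins of the endoplasmic reticulum. xbp-1, the transcription factor of the unfolded protein response of that compartment, was not on the list and had a summit at 123 bp (137.3). Of the 13 genes, 4 had last 200 bases under 80% unique, the F44E5 pair and the hsp-16.48 copies, and 9 did not. Their part in the result was not tested. From replicate 2 alone the count was 5, from replicate 1 alone 14, and 10 of the 12 summits ranked higher in replicate 1, against 149 of all 260 members (57.3%).

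Cuticle collagen genes, the list with the most genes that could hold a member, gave the next largest number of members. Members followed 9 of 101 such collagen genes (8.91%), against 2.39% of all genes that could hold one. This share was below those of the glycolysis, oxidative phosphorylation, V-ATPase, proteasome and muscle lists. Of the 10 summits, 6 ranked higher in replicate 2 and 4 in replicate 1, against 110 and 149 of all 260 members. The 6 count the pair past dpy-13, which lay under a single replicate 2 peak, as 2. sqt-3, a collagen gene of body shape, had a summit at 330 bp (106.3) with 12.6 in replicate 1, rank 11091, and 92.3 in replicate 2, rank 37. dpy-13 had summits at 31 bp (38.0) and 283 bp (49.4), both overlapped by a single peak in replicate 1 (4.97, rank 29320) and in replicate 2 (53.1, rank 151). rol-8 (86.0 at 193 bp) ranked 5114 in replicate 1 and 99 in replicate 2, sqt-1 (55.3 at 346 bp) 10845 in replicate 1 and 127 in replicate 2, and col-17 (98.2 at 117 bp) had no peak in replicate 1 and rank 55 in replicate 2. col-10, col-42 (102.6 at 98 bp), col-166 (71.2 at 285 bp) and col-144 (52.1 at 34 bp) ranked higher in replicate 1. From replicate 1 alone members followed 5 collagen genes and from replicate 2 alone 13. For col-10, col-144 and col-166 between 0 and 37.6% of the words in the last 200 bases of the gene were unique. The rol-8 summit lay inside an annotated ncRNA gene, and that past col-144 within 100 bp of one.

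The remaining lists gave few members each, and those of glycolysis and oxidative phosphorylation had shares next to that of the chaperone list. Oxidative phosphorylation genes had members past 5 of 17 (29.4%), the ATP synthase gene atp-1 (102.0), nuo-4 of complex I (94.9), the cytochrome oxidase genes cox-5A (64.8) and cox-5B (54.5), and ucr-1 of complex III (43.8). Of these 5 summits 4 ranked higher in replicate 2. Muscle and actin genes had 4 of 30 (13.3%). They were act-2 (95.7) and act-1 (58.6), which encode actin, pat-4 (67.0), the integrin-linked kinase, and pat-3 (37.7), the beta integrin. V-ATPase genes had 2 of 10 (20%), vha-14 (59.4) and vha-12 (40.2), and proteasome genes 2 of 13 (15.4%), rpt-1 and pas-6 (77.2). Glycolysis genes had 2 of 6 (33.3%), gpd-3 and ipgm-1 (60.6). Histone genes had 2 of 62 (3.23%), hil-3 (51.6) and his-24 (38.4), which encode linker histones. Translation factors had 1 of 12 (8.33%), eif-2alpha (43.4). Antimicrobial peptide genes had 1 of 49 (2.04%), nlp-31 (53.7). Ribosomal protein genes had 1 of 34 (2.94%), rpl-31 (77.0 at 234 bp). The histone, antimicrobial peptide and ribosomal protein shares were close to the 2.39% of all 11906 genes that could hold a member. Of all 82 ribosomal protein genes, which include genes whose 3′ end could not hold a member, 54 had a summit within 500 bp of their 5′ end. Among all protein-coding genes 1466 of 19973 (7.34%) had one. The other lists ran from 7 of 72 antimicrobial peptide genes to 13 of 21 V-ATPase genes. The summits past act-1, act-2, pas-6, ucr-1 and rpl-31 lay inside an annotated noncoding gene, and that past rpt-1 within 100 bp of a snRNA gene. At these, transcription of the noncoding gene and of the message cannot be told apart.

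Genes with a summit past the 3′ end often had another elsewhere. Of the 255 nearest genes, 114 (44.7%) also had one of the 3000 summits within 500 bp of their own 5′ end, against 5.42% of all genes whose 3′ end could hold a member. A summit inside the gene was present at 109 (42.7%), against 4.05%. Neither was present at 108 (42.4%), among them F44E5.4, F44E5.5, nra-1 and hsp-12.3. For F44E5.4 and F44E5.5 only 24.2% and 27.3% of the words in the last 200 bases were unique. The replicate 2 summits of the nra-1 and hsp-12.3 peaks lay inside the gene. Read from the other side, a member followed 124 of 645 genes with a summit at the 5′ end (19.2%, Wilson interval 16.4 to 22.4%) and 161 of 11261 without one (1.43%, 1.23 to 1.67%). These shares compare genes within the same libraries, and neighbouring peaks are not independent. The genes followed by members had a median length of 2293 bp, against 1984 bp for all that could hold one.

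A pair of summits had the same nearest 3′ end at 5 genes. At mak-1 they lay at 122 bp (207.9) and 322 bp (52.6), at mdl-1 at 112 bp (213.0) and 317 bp (43.3), and at gyg-1, a glycogenin, at 3 bp (90.4) and 232 bp (86.2). Y17G7B.21 had them at 122 bp (38.4) and 321 bp (114.2), and dpy-13 as given. In each of the 5 the same replicate peaks overlapped both summits, and gyg-1 had a peak in replicate 1 only. The converging genes tmem-231 and T26A8.4 shared a pair as well, 24 and 224 bp past tmem-231 (250.9 and 73.1) and 355 and 155 bp past T26A8.4, again under the same replicate peaks.

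The next gene beyond a member most often pointed the same way. The next protein-coding gene lay on the same strand for 175 of 260 (67.3%), against 55.4% of the 11906 3′ ends that could hold a member, or 58.8% of the eligible bases. It ended towards the summit for 84 (32.3%), against 44.6% of these 3′ ends and 41.1% of the bases. The homt-1 summit, at the end of chromosome I, had no gene beyond it. No test was made of this difference. The gaps were long, with a median of 2029 bp before a same-strand gene and 985 bp before an opposing one, against 1660 and 606 bp for all eligible 3′ ends. Close operon neighbours are left out by the condition on 5′ ends. In 32 cases the summit lay within 500 bp of 2 converging 3′ ends, as for hsp-1 and nra-1 or F25E5.8 and F25E5.9.

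The sequence at members was richer in G and C than that past other 3′ ends. Within 100 bp of the summit G and C made up 37.4% of bases, against 33.9% in windows of the same length centred 160 bp past the 9894 3′ ends where that base met the conditions, and 40.2% at intergenic summits elsewhere. Windows with the word TTTTTT on the gene's strand were 39.6% (103 of 260), against 46.9% of those at other 3′ ends, and windows with AAAAAA, the same word on the other strand, were 34.2%, against 46.3%. The polyadenylation signal AATAAA was present on the gene's strand in the last 40 bases of 138 of 255 genes (54.1%, Wilson interval 48.0 to 60.1%), against 46.6% of all genes whose end could hold a member. Around the summit itself AATAAA was in 27.7% of windows, against 25.2%. Member windows lay at varying distances, and those of the 65 summits 1 to 100 bp past the end reached back over it. The other windows, centred 160 bp past, did not reach their own 3′ end. The shares within 100 bp of the summit thus compare stretches that are not placed alike. All words were chosen and counted in these data without a test, and TTTTTT and AAAAAA windows can be the same ones. These matches describe the letters in the windows and not sites of cleavage.

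**Figure D4:**
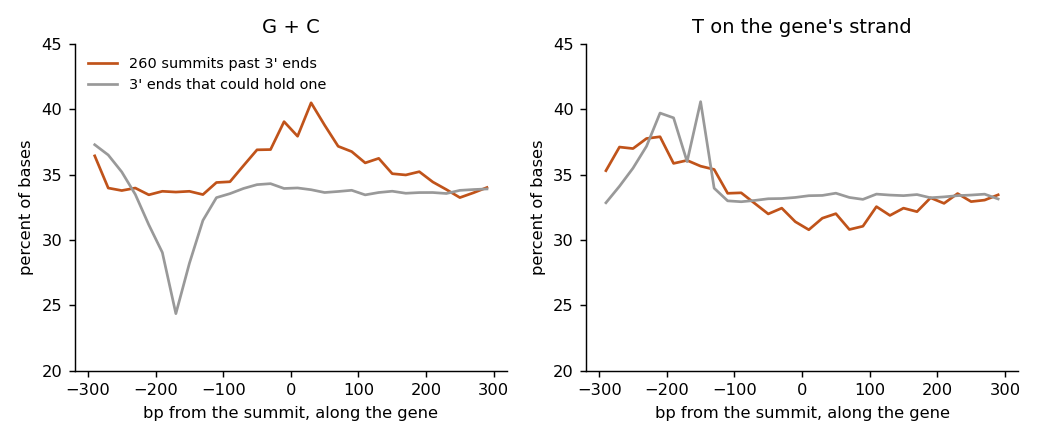
Percent of bases that are G or C (left) and T on the strand of the gene (right) in 20 bp steps from 300 bp before to 300 bp after the summit, for the 260 members and for windows centred 160 bp past all 3′ ends that could hold one. G and C rise to 40.5% just past the summits of members, against 33.9% in the other windows, whose dip before the centre is the 3′ end itself, since their distance is fixed.

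The replicates overlapped members to similar degrees, while their overlaps with promoter peaks lay further apart. The pooled list was derived from the alignments of both replicates, so these overlaps are not an independent check of the members. The 3000 strongest peaks of replicate 1 overlapped 193 of the 260 members (74.2%, Wilson interval 68.6 to 79.2%), against 79.7% of all 3000 pooled peaks and 85.8% of those at 5′ ends. Those of replicate 2 overlapped 177 (68.1%, 62.2 to 73.4%), against 55.4% of all and 46.8% of those at 5′ ends. Both replicates did so at 118 members (45.4%), against 40% of all 3000. Replicate 1 alone overlapped 75, replicate 2 alone 59, and neither 8. Of the 1298 summits at 5′ ends, both replicates overlapped 484, replicate 1 alone 630, replicate 2 alone 124 and neither 60. The median rank of the overlapping peaks was 1254.5 in replicate 1 and 1189 in replicate 2 for members, against 1290 and 2878 at 5′ ends. Gene-body summits were close to the members in both replicates (71.2% and 64.6%).

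**Figure D5:**
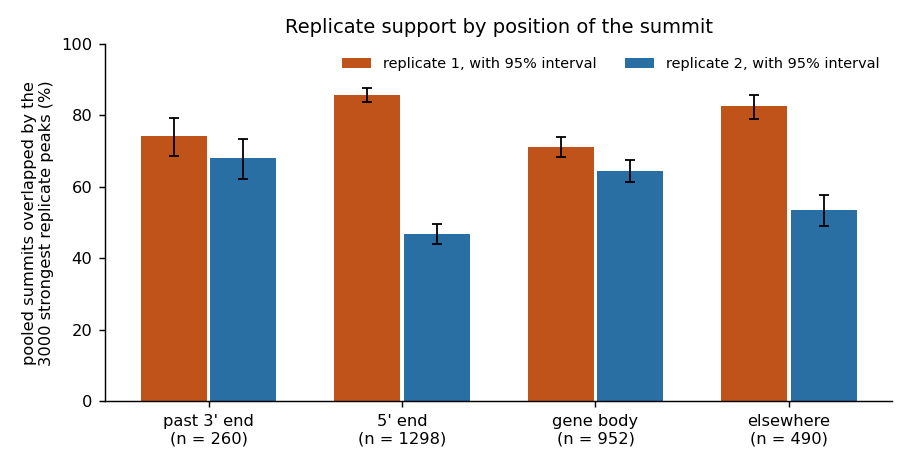
Percent of pooled summits (vertical axis) overlapped by at least 1 bp by the 3000 strongest peaks of replicate 1 or replicate 2, for summits past 3′ ends, at 5′ ends, in gene bodies and elsewhere, with Wilson 95% intervals over peaks as bars. Past 3′ ends the replicates stand at 74.2% and 68.1%, and at 5′ ends at 85.8% and 46.8%.

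Most replicate summits stayed within the same window, though here too the replicate lists are not independent of the pooled one. In the whole replicate lists, 252 members had a peak in replicate 1 and 251 in replicate 2, and the summit of that peak was still 1 to 500 bp past the same 3′ end at 234 (92.9%) and 223 (88.8%). It moved upstream of the 3′ end at 15 and 24 members and beyond 500 bp at 3 and 4. The median distance from the pooled summit was 11 bp in replicate 1 and 34 bp in replicate 2. By chromosome the members were 43 on I, 48 on II, 47 on III, 35 on IV, 48 on V and 39 on X. All 36-base words within 100 bp of the summit were unique in the genome at 228 members (87.7%), and fewer than 80% were at 13, among them ZK1248.17, hsp-12.3, rpt-1, nlp-4, ins-13 and msp-65. The last 200 bases of the gene were under 80% unique for 12 of the 285 genes that a member follows.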

How the data were processed

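AMA-1 ChIP-seq peaks of 2 biological replicates of whole N2 L2 larvae were analysed. The authors deposited peak lists with a signal value per peak and, as another deposited column, the summit offset. By the README text, every replicate list was derived from its own alignment plus a file behind the control-normalised track, the pooled list from the alignments of both, and the optimal list from those lists by the irreproducible discovery rate. No source used here states the peak caller, aligner, depth or thresholds. Replicate signals come from separate calls and share no known scale. Only ce11 lists were used, whose ends fit the WBcel235 chromosome lengths.

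Genes were the 19973 nuclear protein-coding genes of Ensembl release 115. Distances, overlaps (1 bp or more), word counts and 36-base uniqueness on either strand were computed in Python 3.11.15 (numpy 2.4.6, pandas 2.3.3, scipy 1.17.1, Biopython 1.88). A gene could hold a member if at least 1 base 1 to 500 bp past its 3′ end met the conditions. Sequences were compared with these genes rather than, as planned, with all protein-coding 3′ ends. Placement was tested on simulated positions around 3′ ends, of which 2000 of 2000 were rightly called members or not. Unmapped sample columns numbered 0. No sequence from chromosome I is printed. Its 43 members were not candidates for printing and are not in the count of 166 windows or their ranking.

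Named genes were the 25 strongest members, those on 11 lists, the 10 strongest with a noncoding gene at the summit, and genes with 2 members. mfb-1, xbp-1, top-2, pqn-42, msp-65 and msp-57 were chosen after their values were seen. The members and lists were chosen with earlier results of these data known, and the symbols on the lists were written after the strongest members had been seen. The distance bins, rank tiers, signal mark of 200, rank comparison between replicates, AAAAAA count, uniqueness of gene ends and F44E5 alignment were also added after seeing the data.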

Additional observations from a re-analysis of the deposited data

How the results depend on the processing

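No paired analysis was possible because there is 1 group. The share of members in the list was 10.1% in the optimal list, 6.88% among 6000 peaks, 6.50% and 10.4% with 3′ windows of 250 and 1000 bp, 7.10% without noncoding genes within 100 bp, and 7.37 to 8.30% from single replicates. The median distance was 131 and 193 bp with windows of 250 and 1000 bp and 148 to 198 bp from single replicates. Overlap by replicate 1 was 86.2% in the optimal list, 54.0% among 6000 peaks and 67.7% with an overlap of 50 percent of both peaks, and 45.4% for members taken from replicate 2 alone. Overlap by replicate 2 was 52.5% among 6000 peaks, 57.7% with an overlap of 50 percent and 58.5% with summits within 100 bp, and 53.8% for members from replicate 1 alone. Genes with another summit were 47.8% in the optimal list, 65.2% among 6000 peaks and 50.2 to 56.0% from single replicates. TTTTTT was in 21.5% of windows of 50 bp each side. Chaperone genes numbered 5 to 14 and collagen genes 5 to 13 from single replicates, and oxidative phosphorylation genes 8 among 6000 peaks, alternatives chosen after seeing the data. The cause was not tested in any of these, though fewer bases or peaks enter by construction in the shorter windows and lists. The share without noncoding genes also falls by construction, since only members near them were taken out of the count. Peaks of other kinds near noncoding genes stayed in the list by which that count was divided. The other 60 of 84 values stayed within the interval or within 1.5 times of the reported one. The share before an opposing gene was 28.4 to 35.4% throughout. Unknown read depth limits all values.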
